A study of Mus musculus with 16 samples.

Results

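Granins and prohormone processing enzymes are the proteins with which an endocrine cell packs and cuts its peptide hormones. The 10 genes described here were taken as a list of names, drawn up with earlier results of these data known: Chga, Chgb, Scg2, Scg3, Scg5, Pcsk1, Pcsk2, Cpe, Pcsk1n and Vgf. All 10 were found among the 23329 genes of the count table, and all 10 were among the 10820 genes that passed the filter on low counts.

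The RNA came from BetaTC6, a pancreatic β-cell line from a mouse insulinoma with a C57BL/6 strain background per the labels, and 16 libraries were made, 4 for each pairing of genotype label and treatment. Wild-type cells and cells labelled P2ry1 knockout, which lack a purinergic receptor according to that label, were grown for 3 days and kept in Krebs Ringer buffer without glucose. They then received 20 mM glucose for 30 minutes with DMSO, the vehicle, or with ivermectin, an antiparasitic drug. Every group therefore had the same glucose stimulus, and no group without it is in the comparison. The labels name 1 knockout line and do not give the number of clones or the deleted segment, nor whether the replicates were separate cultures, so the p-values measure only the spread between these libraries.

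In the regulated secretory pathway, granins such as chromogranin A, chromogranin B and secretogranin II aggregate with hormones in the trans-Golgi network and help dense-core granules to form. Inside the acidifying granule the prohormone convertases PC1/3 (Pcsk1) and PC2 (Pcsk2) cut prohormones at pairs of basic residues, and carboxypeptidase E (Cpe) then trims the basic residues that remain. In β-cells this sequence turns proinsulin into insulin and C-peptide. Proteins that bind the convertases set when they become active: 7B2 (Scg5) accompanies PC2, and proSAAS (Pcsk1n) inhibits PC1/3.

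Several genes of this pathway are known to carry a cyclic AMP response element, TGACGTCA, shortly before their start. Promoter windows from 250 bases before to 50 bases after the start were available for 8 of the 10 genes from RefSeq (assembly GRCm38.p6). Cpe and Vgf had no window in that table. The full element, searched as TGACGTCA, which reads the same on both strands, lay in the windows of Chgb, Scg2 and Pcsk1. The 4 genes Chga, Scg3, Scg5 and Pcsk2 held only its core, TGACG, searched on both strands and contained in the full element, and Pcsk1n held neither. The full element occurred in 1.79% of 32851 promoter windows of the table and the core in 20.8%. Among the 7820 genes with a window that passed the count filter the shares were 3.99% and 37.7%. These shares are per gene, counted if any window of the gene matched, whereas those of the whole table are per window. The sequences below are those of the 3 genes with the full element. They were picked with the values known: among the 8 genes with a window these 3 are the ones lower in the libraries labelled knockout, and Vgf, the 1 gene called higher, has no window. Chga, a granin whose window held the core but no exact copy of the full element, is also shown. Its core is followed by TAA where the full element has TCA, and a search for exact letters passes over such near matches. Each is 28 bases, 5′ to 3′ on the strand of the gene, with the element or its core in capitals.
Chgb: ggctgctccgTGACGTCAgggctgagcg
Scg2: gctgagccggTGACGTCAgcgtggaatg
Pcsk1: caggtagatcTGACGTCAagagatggct
Chga: ggcggtcctaTGACGtaatttcctgggt
In the same build these stretches lie at chr2:132781560-132781587 (plus strand, Chgb), chr1:79440077-79440104 (minus strand, Scg2), chr13:75089769-75089796 (plus strand, Pcsk1) and chr12:102554887-102554914 (plus strand, Chga). The first base of the element lies 72 bases before the start of Chgb, 68 before that of Scg2 and 78 before that of Pcsk1. The first base of the core lies 44 bases before the start of Chga. The starts are those of the promoter table, and for Pcsk1 that start lies inside the annotated span of the gene, whose first base comes before the element. A match of letters is a description of the window and not a binding measurement.

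The promoter of Chgb, the gene with the largest difference among the 10, is given over its 250 bases before the start, chr2:132781392-132781641 on the plus strand, again with the element in capitals.
Chgb promoter: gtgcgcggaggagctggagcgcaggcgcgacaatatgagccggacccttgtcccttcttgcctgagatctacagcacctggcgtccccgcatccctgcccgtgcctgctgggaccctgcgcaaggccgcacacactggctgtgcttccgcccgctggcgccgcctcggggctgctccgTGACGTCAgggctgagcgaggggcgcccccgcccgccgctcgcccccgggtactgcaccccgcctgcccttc

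Library totals ran from 893088 to 2013242 counts, a 2.25-fold range, and the wild-type vehicle group held the 4 lowest. The ribosomal transcript Rn45s took 2.99% of the counts of wild-type ivermectin replicate 4 and at most 0.601% in the other 15 libraries, and leaving it and Lars2 out changed no call of the 10 genes. Levels are given as CPM, which puts libraries of different totals on 1 scale, here with TMM factors, a normalisation that treats most genes as equal between libraries. Levels of different genes are compared as TPM, which also allows for transcript length. Of 10 β-cell markers 9 passed the filter, Ins2 among them at 17290 to 25573 CPM. Ucn3, a marker of mature β-cells, had 0 to 3 counts. Acinar, ductal, endothelial, fibroblast and leukocyte markers summed to at most 9.39 CPM per list. The α-cell markers summed to more, at 281 to 344 CPM in wild-type and 218 to 252 in labelled-knockout vehicle libraries. With ivermectin they summed to 292 to 326 and 215 to 260 CPM. Gcg, 1 of these markers, stood at 202 to 323 CPM over the 16 libraries. The δ-cell and hepatocyte markers are given below. P2ry1 itself was not lower than in wild type beyond the spread: under vehicle it stood at 94.6 ± 8.57 CPM (SD, n = 4) in wild-type and 84.0 ± 8.98 in labelled-knockout cells, and under ivermectin at 93.1 ± 7.58 and 85.5 ± 4.95, with edgeR adjusted p-values of 0.245 and 0.394 for the label in vehicle and in ivermectin. Since the deleted segment is not named, a count over the whole gene does not check the label, and the groups are called labelled knockout throughout.

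The 10 genes together took 1.87% ± 0.031 (SD, n = 4) of all counts in wild-type cells under vehicle and 1.87% ± 0.015 under ivermectin, and 1.76% ± 0.023 and 1.78% ± 0.014 in labelled-knockout cells. By TPM in wild-type vehicle libraries they fell into 3 very abundant transcripts and 7 less abundant ones. Chga, chromogranin A, was the most abundant at 3895 ± 101 TPM (SD, n = 4) and ranked between 7 and 15 among all genes over the 16 libraries. Cpe followed at 3233 ± 60.1 TPM and Scg2 at 2873 ± 58.2. Chgb stood at 719 ± 26.9 TPM and Pcsk2 at 656 ± 5.74, so the transcript of PC2 exceeded that of PC1/3, Pcsk1, at 381 ± 27.4. Scg5 at 574 ± 21.9 TPM and Scg3 at 561 ± 24.0 overlapped between libraries, as did Pcsk1 and Pcsk1n, the latter at 344 ± 7.92. Vgf, a granin-like neuropeptide precursor, was lowest at 216 ± 31.2 TPM.

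**Figure D1:**
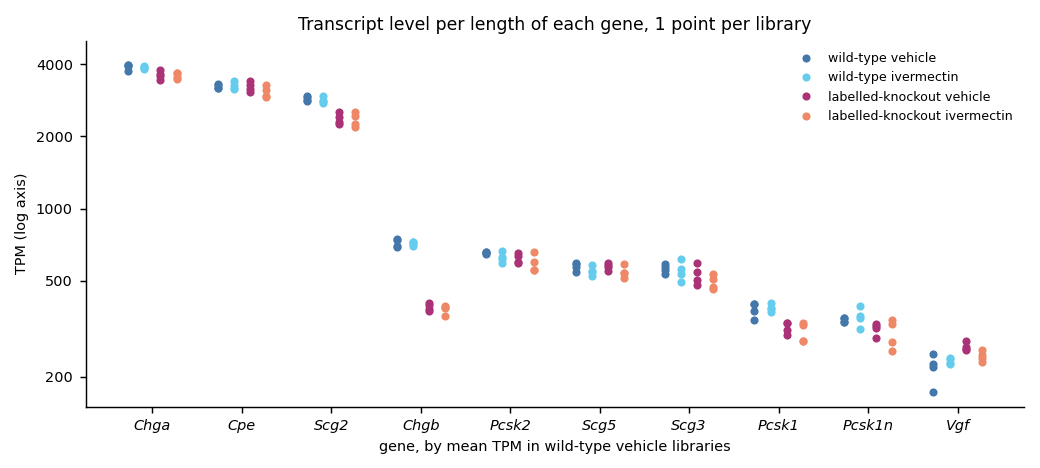
TPM on a log axis (vertical) of the 10 genes (horizontal, ordered by their mean in wild-type vehicle libraries), 1 point per library and 1 colour per group of 4 libraries. Chga, Cpe and Scg2 lie at 2194 TPM or more in every library and the other 7 genes at 746 or less; the points of Chgb drop from about the level of Pcsk2 to that of Pcsk1 in the libraries labelled knockout.

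The first question was whether the cells labelled P2ry1 knockout differ from wild type in this machinery under vehicle. Of the 10 genes, 3 were lower (Chgb, Scg2 and Pcsk1) and 1 was higher (Vgf), by edgeR's quasi-likelihood test with Benjamini-Hochberg adjustment over all tested genes at 0.05. That is 4 of 10, against 20.7% of all genes tested called in either direction in the same comparison (10.8% lower and 9.86% higher). The difference of Chgb was far larger than the others: its level fell by 43.0%, while Scg2 and Pcsk1 fell by 12.9% and 11.5% and Vgf rose by 29.8%. The other 6 genes differed by −0.04 (Pcsk1n) to 0.08 (Scg5) on the log2 scale and did not pass. The median over the 10 genes was −0.02, and that over all genes 0.00.

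Chgb encodes chromogranin B, a granin abundant in β-cell granules. The wild-type vehicle libraries held 1297, 1235, 1197 and 1155 CPM and the labelled-knockout vehicle libraries 732, 671, 687 and 695. Each labelled-knockout library was thus below each wild-type library, and the gap between the groups exceeded the range within either. The log2 difference was −0.81 (SE 0.051, edgeR adjusted p 1.46e-14). In bulk RNA, fewer cells that express a gene cannot be told apart from less of it per cell.

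Scg2, whose product secretogranin II is a granin and the precursor of secretoneurin, stood at 4656, 4334, 4360 and 4250 CPM in wild-type vehicle and at 3849, 3802, 3906 and 3763 in labelled-knockout vehicle libraries. These groups did not overlap either, but the gap was small. The log2 difference was −0.20 (SE 0.041, edgeR adjusted p 4.39e-04).

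Pcsk1, the convertase PC1/3 that begins proinsulin cleavage, stood at 601, 608, 543 and 609 CPM in wild-type vehicle and at 504, 510, 549 and 530 in labelled-knockout vehicle libraries. The groups overlapped because wild-type replicate 3 lay below labelled-knockout replicate 3. The log2 difference was −0.18 (SE 0.054, edgeR adjusted p 0.0177), and the call was lost without any 1 of 4 libraries (adjusted p 0.0515, 0.0672 and 0.0690 without wild-type vehicle replicates 1, 2 and 4, and 0.0568 without labelled-knockout vehicle replicate 1) and with no filter on low counts (0.0898).

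Vgf was the 1 member that was higher. Its product is stored in dense-core granules and cut into several peptides. Wild-type vehicle libraries held 282, 347, 352 and 380 CPM and labelled-knockout vehicle libraries 449, 434, 445 and 443, with no overlap and with the wider spread in wild type. The log2 difference was 0.38 (SE 0.067, edgeR adjusted p 6.54e-05). The groups of 3 of the 10 genes (Chgb, Scg2 and Vgf) did not overlap, against 22.1% of all genes tested.

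Among the genes that did not pass, Chga ranged from 4315 to 4503 CPM in wild-type vehicle and from 4094 to 4456 in labelled-knockout vehicle libraries. Scg3, which tethers granin aggregates to the granule membrane, ranged from 736 to 768 and from 700 to 776. Pcsk2 ranged from 1934 to 2075 and from 1956 to 2060, and its partner Scg5 from 363 to 419 and from 370 to 434. Cpe ranged from 3945 to 4227 and from 4219 to 4521, and Pcsk1n, the proSAAS inhibitor, from 438 to 485 and from 408 to 472. All 6 pairs of ranges overlapped. The 95% intervals of the fold difference of these 6 genes lay between 0.855 and 1.16.

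RNA typical of hepatocytes moved with this comparison. All 12 hepatocyte markers passed the filter, and under vehicle their summed level ran from 1193 to 2374 CPM in wild-type and from 791 to 1037 in labelled-knockout cells. Under ivermectin it ran from 741 to 881 and from 900 to 1126. Ttr, which islet cells also express, supplied 543 to 949 CPM of it. Alb, the albumin gene, ran from 328 to 923 CPM in wild-type vehicle against 17.1 to 52.3 in labelled-knockout vehicle libraries, and from 57.7 to 172 against 28.0 to 144 with ivermectin. With the Alb level as a covariate, Chgb remained called in vehicle at −0.71 (adjusted p 1.12e-04), whereas Scg2 (−0.18, adjusted p 0.333), Pcsk1 (−0.11, 0.716) and Vgf (0.37, 0.1495) did not, all by edgeR. That is 1 of 10, against 3.72% of all genes called in vehicle in that fit (20.7% without the covariate). The log2 differences of Scg2 and Vgf thus stayed close to those without the covariate, and that of Pcsk1 was smaller. Because Alb and the genotype label moved together in vehicle, their parts cannot be told apart there.

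**Figure D2:**
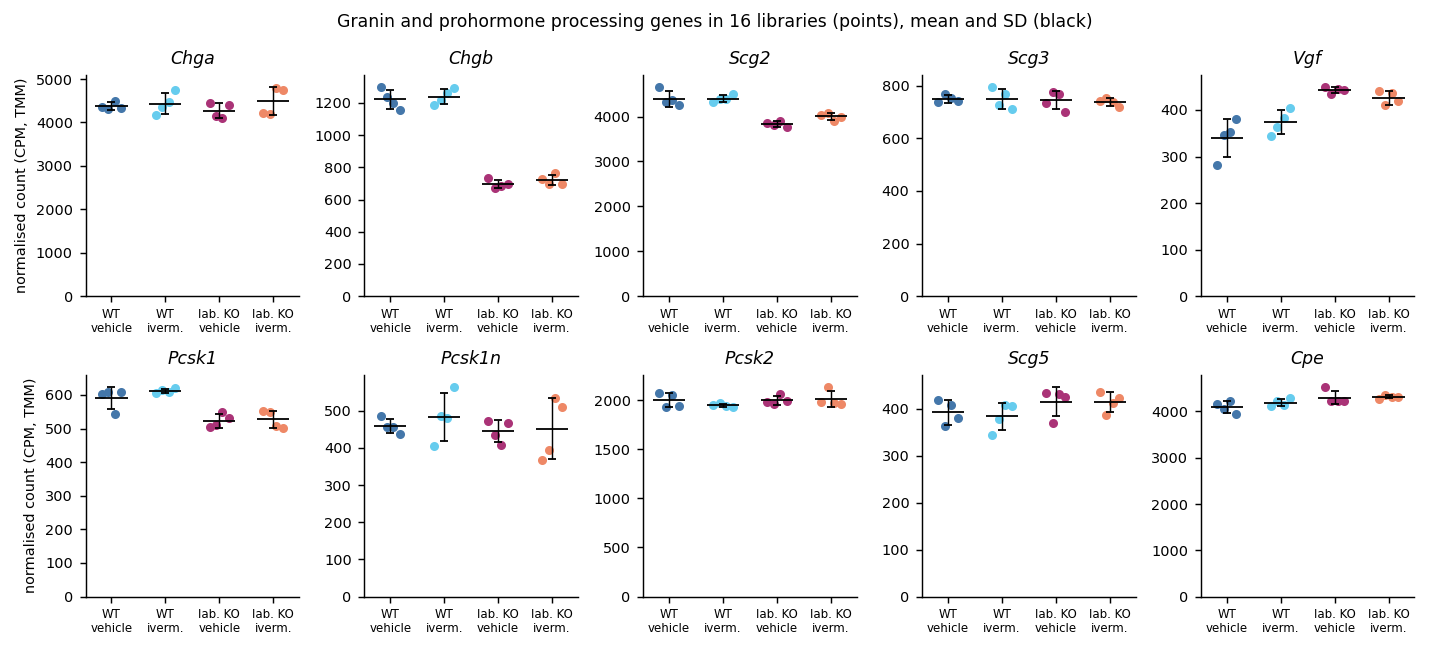
Normalised counts (CPM scaled with TMM factors, vertical axes from 0) of the 10 genes in the 4 groups (horizontal, WT wild type, lab. KO labelled knockout, iverm. ivermectin), with 1 point per library and the mean and SD of 4 libraries in black. Chgb drops from 1155 CPM or more in all 8 wild-type libraries to 763 or less in all 8 labelled-knockout libraries, while within each genotype label the vehicle and ivermectin points of every gene overlap.

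The ivermectin-treated libraries gave a comparison of the labels that shared no library with the vehicle comparison and in which Alb differed less. Again 3 of the 10 genes were lower and 1 was higher by edgeR, and they were the same 4 genes, against 27.8% of all genes tested called in either direction (13.9% lower and 13.9% higher). Chgb fell by 41.7% and Pcsk1 by 13.7%, while Scg2 fell by 9.04% and Vgf rose by 14.4%. The other 6 genes differed by −0.10 (Pcsk1n) to 0.11 (Scg5) on the log2 scale. The median over the 10 genes was −0.01, and over all genes 0.00.

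Chgb stood at 1186, 1216, 1260 and 1292 CPM in wild-type ivermectin and at 727, 695, 763 and 699 in labelled-knockout ivermectin libraries. The separation was as wide as in vehicle, with a log2 difference of −0.78 (SE 0.051, edgeR adjusted p 2.31e-14). For Pcsk1 the values were 605, 613, 609 and 619 CPM in wild type against 551, 548, 508 and 503. Here the groups did not overlap, and the log2 difference was −0.21 (SE 0.053, edgeR adjusted p 0.00237), a call that held under every alternative run.

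Scg2 stood at 4332, 4382, 4384 and 4506 CPM in wild-type ivermectin and at 4034, 4079, 3900 and 3999 in labelled-knockout ivermectin libraries, a log2 difference of −0.14 (SE 0.041, edgeR adjusted p 0.0119) that was not called with no filter on low counts (0.0793). Vgf stood at 343, 364, 383 and 404 CPM against 440, 410, 436 and 419, and its lowest labelled-knockout library lay just above its highest wild-type library. Its log2 difference was 0.19 (SE 0.064, edgeR adjusted p 0.0215), and the call was lost without wild-type ivermectin replicate 1 (0.0849) or 2 (0.0637) or labelled-knockout ivermectin replicate 1 (0.0683), and after thinning every library to the smallest total (0.1001). The groups of these 4 genes did not overlap, against 25.3% of all genes tested. With the Alb covariate the number called in ivermectin was again 4, against 26.0% of all genes called in that fit.

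Scale matters for the weaker differences. TPM carries no factor between libraries, and on it Chga ranged from 3800 to 3936 in wild-type ivermectin and from 3454 to 3667 in labelled-knockout ivermectin libraries, without overlap, although its CPM values overlapped and it was called under none of the 20 alternatives. Vgf overlapped on TPM in ivermectin, at 226 to 239 against 229.5 to 257, and Chgb did not, at 702 to 728 against 356 to 395. Under vehicle Pcsk1 and Pcsk1n overlapped on CPM but not on TPM. Pcsk1 ranged from 345 to 403 TPM in wild-type and from 297 to 335 in labelled-knockout vehicle libraries. Pcsk1n ranged from 336 to 351 and from 289 to 332 TPM, and was called under none of the 20 alternatives in vehicle.

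**Figure D3:**
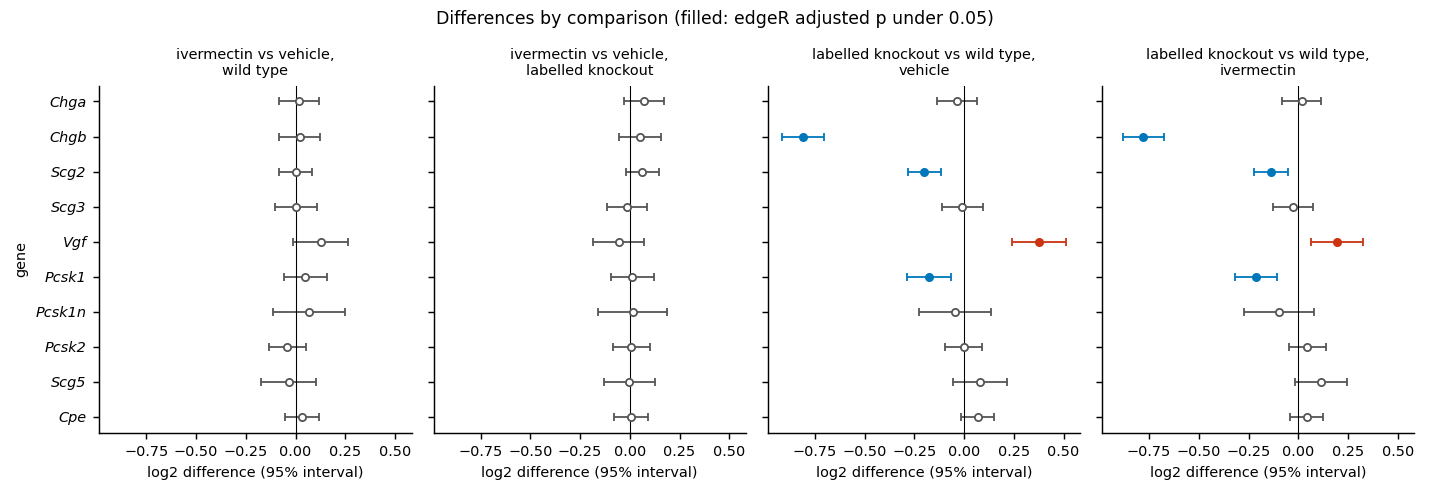
Log2 differences (horizontal) with 95% intervals of the 10 genes (vertical) in 4 comparisons, with edgeR adjusted p-values under 0.05 drawn filled, lower in blue and higher in red. Chgb lies near −0.8 in both comparisons of the genotype label with Scg2, Pcsk1 and Vgf called on a smaller scale, and both ivermectin panels hold open symbols alone.

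Ivermectin itself was the treatment of interest, and none of the 10 genes passed the test for it. In wild-type cells the log2 differences ran from −0.04 (Pcsk2) to 0.13 (Vgf), with 0.601% of all genes called (0.0555% higher and 0.545% lower), and the smallest edgeR adjusted p over the 10 was 0.982. In labelled-knockout cells they ran from −0.06 (Vgf) to 0.07 (Chga), with 0 of all genes called, and the smallest adjusted p was 0.739. Not 1 of the 10 had an unadjusted p under 0.05 in either comparison, against 563 and 820 genes of the 10820, and DESeq2 called 0 of the 10 in both as well. For 0 of the 10 genes did the vehicle and ivermectin groups fail to overlap, against 3.35% of all genes in wild-type and 3.69% in labelled-knockout cells. Chgb differed by 0.02 in wild-type and by 0.05 in labelled-knockout cells on the log2 scale.

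The intervals limit what could have been missed after these 30 minutes. The 95% intervals of the fold difference lay between 0.887 and 1.202 in wild-type cells over the 10 genes and between 0.881 and 1.14 in labelled-knockout cells. The interaction, which asks whether the ivermectin difference itself depends on the label, called 0 of the 10 genes by edgeR against 0.222% of all genes (0.213% higher and 0.00924% lower), with 0 at an unadjusted p under 0.05 and 0 by DESeq2. It ran from −0.18 (Vgf, unadjusted p 0.0581, adjusted p 0.969) to 0.06 (Scg2) on the log2 scale. The interval of the Vgf interaction reached from a fold of 0.774 to 1.005.

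Ratios of 2 of these genes within a library need no scaling between libraries. The ratio of Chgb to Chga counts was 0.279 ± 0.015 (SD, n = 4) under vehicle and 0.279 ± 0.0057 under ivermectin in wild-type cells, and 0.163 ± 0.0041 and 0.161 ± 0.011 in labelled-knockout cells. The groups did not overlap in either treatment, with log2 differences of −0.77 and −0.80. The exact two-sided permutation p was 0.0286 for each, the smallest that 4 against 4 allows, and 0.152 after Benjamini-Hochberg adjustment over the 16 ratio tests, so none of the 16 passed.

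The ratio of Pcsk1 to Pcsk2, the balance of the convertases, was 0.296 ± 0.024 (SD, n = 4) under vehicle and 0.314 ± 0.0043 under ivermectin in wild-type cells, against 0.262 ± 0.0056 and 0.263 ± 0.011 in labelled-knockout cells. The log2 difference between the labels was −0.17 in vehicle (exact permutation p 0.0857), where the groups overlapped, and −0.26 in ivermectin (exact permutation p 0.0286, the smallest possible), where they did not. Pcsk2 to Scg5 ranged from 4.55 to 5.65 and Pcsk1 to its inhibitor Pcsk1n from 0.952 to 1.496 over all 16 libraries, with group ranges that overlapped in all 4 comparisons.

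**Figure D4:**
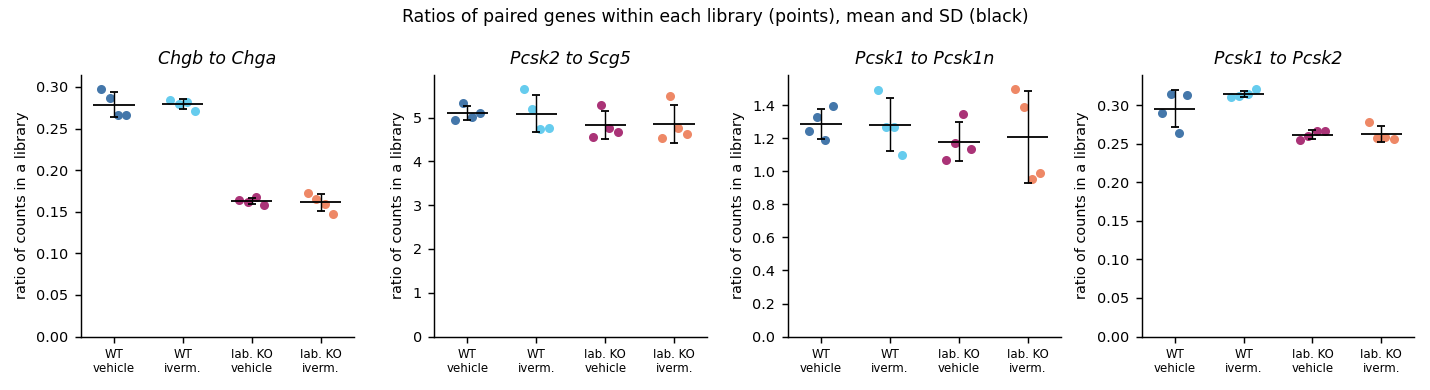
Ratios of the counts of paired genes within each library (vertical axes from 0) in the 4 groups (horizontal), with 1 point per library and the mean and SD of 4 libraries in black. The ratio of Chgb to Chga lies above 0.26 in all 8 wild-type and below 0.18 in all 8 labelled-knockout libraries, and the ratios with Scg5 and Pcsk1n overlap across all groups.

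Other enzymes that act on prohormones or share the granule formed a list of 17 genes, of which 13 passed the filter on low counts. In vehicle 8 were higher and 2 lower in the labelled-knockout libraries (20.7% of all genes tested were called), with a median of 0.44 over the 13 against 0.00 over all genes on the log2 scale, and in ivermectin the same 8 and 2 were called (27.8% of all genes, median 0.47). The lysosomal proteases cathepsin B (Ctsb, log2 difference 0.44), cathepsin D (Ctsd, 0.44) and cathepsin L (Ctsl, 0.60) were among the higher in vehicle. So was Cpd, a carboxypeptidase of the trans-Golgi network related to Cpe, which rose from 281 ± 22.1 to 423 ± 30.5 CPM (SD, n = 4; adjusted p 4.18e-07). Pam, the enzyme that amidates peptide ends, fell from 293 ± 18.03 to 218 ± 9.64 CPM (adjusted p 1.49e-05), all by edgeR. With the Alb covariate 3 of these 10 calls in vehicle remained, those of Ctsb, Ctsd and Ctsl, against 3.72% of all genes called in that fit. Of the 7 genes no longer called, 6 had a larger log2 difference with the covariate than without it. The log2 difference of Cpd was then 0.50 (0.58 without the covariate, edgeR adjusted p 0.0661), that of Pam −0.44 (−0.43 without, 0.0868) and that of the aminopeptidase gene Rnpep 0.83 (0.63 without, 0.0543).

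Of 32 prohormone substrates 13 passed the filter, and in both treatments the same 6 were lower and 2 higher in the labelled-knockout libraries, against 20.7% of all genes called in vehicle and 27.8% in ivermectin. Iapp, the amyloid peptide co-secreted with insulin, rose from 5494 ± 329 to 7206 ± 391 CPM in vehicle (SD, n = 4; log2 difference 0.39, edgeR adjusted p 4.20e-07), and Cck rose by 0.43. Npy fell by 0.63 on the log2 scale, Gcg by 0.46 and Nucb2 by 0.31. With the Alb covariate, with which 3.72% of all genes were called, 6 of the 8 vehicle calls remained, without Gcg (−0.43, edgeR adjusted p 0.113) and Nucb2 (−0.52, 0.0978), and after thinning Nucb2 was not called either (0.145). Sst, the somatostatin precursor, fell from 218 ± 15.4 to 15.4 ± 2.60 CPM. Pdyn and Gal were also called lower and had almost no counts in the labelled-knockout libraries. The δ-cell markers, of which Sst is 1, summed to 282 to 334 CPM in wild-type and to 66.3 to 90.4 in labelled-knockout vehicle libraries, and to 269 to 311 and 68.6 to 90.8 with ivermectin. Most of that gap was Sst. Rbp4, the other δ-cell marker past the filter, stood at 83.4 ± 14.4 and 61.7 ± 7.62 CPM in vehicle (SD, n = 4; log2 difference −0.43, edgeR adjusted p 0.0106) and at 62.4 ± 3.61 and 62.8 ± 9.80 CPM with ivermectin (0.0069, 0.976). Hhex had at most 5 counts in any library.

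Granule membrane and biogenesis genes numbered 25, of which 22 passed the filter, and in both treatments the same 6 were lower and 2 higher in the labelled-knockout libraries. That is 8 of 22, against 20.7% of all genes called in vehicle and 27.8% in ivermectin, and the median was −0.01 in each. The largest difference was that of Baiap3, a gene of granule maturation and exocytosis, at 15.5 ± 2.10 CPM in wild-type and 5.19 ± 1.66 in labelled-knockout vehicle libraries (SD, n = 4; log2 difference −1.55, and −1.20 in ivermectin, where thinning left it uncalled at −0.67 with edgeR adjusted p 0.279). The other lower ones were phogrin, a protein of the granule membrane (Ptprn2, log2 difference −0.30 in vehicle), the granule-associated Resp18 (−0.43), the GTPase gene Rab2a (−0.34), Ptprn (−0.14), which encodes the phogrin relative IA-2, and Gnas (−0.43). The vehicle call of Ptprn was lost without wild-type replicate 2, 3 or 4 or labelled-knockout replicate 3 or 4 (edgeR adjusted p 0.0692 to 0.127), with no filter on low counts (0.211) and after thinning (0.0731). The Gnas locus also encodes the granin-like protein NESP55 from overlapping transcripts, which a gene-level count does not separate. Sytl4, granuphilin, which docks granules at the plasma membrane, rose by 0.33. With the Alb covariate 1 of the 8 vehicle calls remained, that of Gnas, against 3.72% of all genes called. Of the other 7 the log2 difference was smaller for 6: it was −0.89 for Baiap3 (adjusted p 0.499), −0.13 for Ptprn, −0.29 for Rab2a and 0.42 for Igf2r (0.51 without the covariate), and −0.21 for Resp18 and 0.20 for Sytl4. That of Ptprn2 was −0.39 (adjusted p 0.0630 by edgeR).

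All 18 genes of the acidification list, subunits of the proton pump and a chloride transporter, passed the filter. In vehicle 10 were higher and 1 lower, and in ivermectin 11 and 1, of which 9 were called in the same direction in both, against 20.7% and 27.8% of all genes called in either direction. The medians were 0.21 and 0.23 on the log2 scale. Atp6v0e (0.55) and Atp6v1e1 (0.50) had the largest rises in vehicle, and Clcn3, the exchanger gene, fell by 0.48. With the Alb covariate 4 of the 11 vehicle calls remained, against 3.72% of all genes called. Of the other 7, 5 had a larger log2 difference than without it, such as Atp6v0b (0.36 against 0.26) and Atp6v0c (0.37 against 0.28). Atp6v1h was at 0.33 (0.39 without) and Atp6v0a1 at 0.0025 (0.28 without).

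Of 13 regulators known for neuroendocrine granule genes 11 passed the filter. In vehicle Myt1 (−0.55), Isl1 (−0.42) and St18 (−0.41) were lower and Ptbp1 was higher (0.17), and in ivermectin Myt1, Isl1, St18 and Neurod1 were lower, with medians of −0.16 and −0.14. These 4 of 11 calls in each treatment stand against 20.7% and 27.8% over all genes. The call of Ptbp1 was lost without any 1 of 7 of the 8 vehicle libraries (adjusted p 0.0503 to 0.0972, and 0.0355 with all), the exception being wild-type replicate 3. In ivermectin St18 was lost without wild-type replicate 1 (0.158) or labelled-knockout replicate 3 (0.0592), and Neurod1 without wild-type replicate 2 (0.161) or labelled-knockout replicates 1 (0.0926) and 3 (0.0574). Of the 20 alternatives, 9 ended the vehicle call of Ptbp1, 3 the ivermectin call of St18 and 5 that of Neurod1, those named included. With the Alb covariate 1 of the 4 vehicle calls remained, that of Myt1, against 3.72% of all genes called. Isl1 was then at −0.42 (edgeR adjusted p 0.101), St18 at −0.31 and Ptbp1 at 0.16. For ivermectin edgeR and DESeq2 each called 0 of the 77 tested genes of these 5 lists in wild-type cells, in labelled-knockout cells and for the interaction, where edgeR called 0.601%, 0% and 0.222% of all genes, so that the counts of 0 are near the background. At an unadjusted edgeR p under 0.05 the counts were 1, 10 and 2 of 77, beside 563, 820 and 553 of all 10820 genes.

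**Figure D5:**
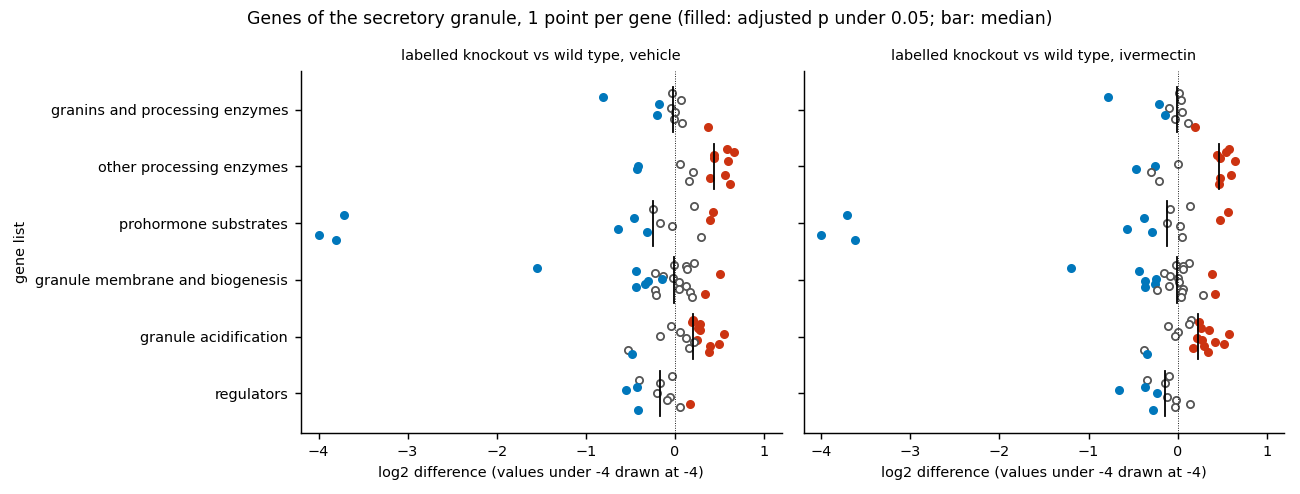
Log2 differences between labelled-knockout and wild-type libraries (horizontal, values under −4 drawn at −4) of the genes of 6 lists (vertical) in vehicle and ivermectin, 1 point per tested gene, filled where the edgeR adjusted p is under 0.05, with a bar at the list median. The 10 granin and processing genes centre near 0 with Chgb apart, and the medians of the other processing enzymes and of the acidification genes lie above 0.

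Chgb was the member with the smallest adjusted p, and the genes whose levels ran most like its own over the 16 libraries were Meg3 (Pearson r 0.989), Rian (0.987) and Sst (0.986), among 6575 genes at an average log2 CPM of 5 or more. Meg3 and Rian are long noncoding RNAs of the imprinted Dlk1-Dio3 region. All of them separate the libraries by the genotype label, which by itself gives such values. Over the same libraries and as a description, Chgb correlated with Scg2 (0.93) and Pcsk1 (0.86), Vgf negatively with Scg2 (−0.85), and Chga with Pcsk1n (0.87), a pair that did not follow the label.

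The 4 called genes lie on different chromosomes in GRCm38.p6: Scg2 at chr1:79434366-79440026, Chgb at chr2:132781642-132795079, Vgf at chr5:137025301-137033351 and Pcsk1 at chr13:75089420-75134861, none overlapped by another annotated gene. Of the 5 tested genes within 500 kb of Chgb, 1 was called in vehicle (Cds2, −0.28) and Trmt6, 9.13 kb away, was not (−0.20, edgeR adjusted p 0.270). Cds2 was again the 1 called of these 5 in ivermectin (−0.28, edgeR adjusted p 0.00605), against 27.8% of all genes. That ivermectin call held under every alternative run. No neighbour of Scg2 (3 tested) or Pcsk1 (2 tested) was called in vehicle. Around Vgf 13 genes were tested, and 3 were higher (Plod3 by 0.54, Ap1s1 by 0.38 and Cux1 by 0.31) and 1 lower (Gnb2, −0.20) in vehicle, against 20.7% of all genes called. In ivermectin Plod3 (0.46), Ap1s1 (0.35) and Fis1 (0.34) were higher and Gigyf1 (−0.37), Srrt (−0.19) and Gnb2 (−0.16) lower, against 27.8% of all genes, while Cux1 was at 0.04 and not called. In ivermectin the call of Srrt was lost under 11 of the 20 alternatives. These include leaving out wild-type replicate 2, 3 or 4 or labelled-knockout replicate 1 or 2 (edgeR adjusted p 0.0897 to 0.186). The ivermectin call of Gnb2 was lost under 8 of the 20 (adjusted p up to 0.102), among them without replicate 1, 2 or 3 of either group (0.0514 to 0.0921). That of Fis1 was lost under 2 of the 20 (up to 0.105), 1 of them without labelled-knockout replicate 3 (0.0526). In vehicle the edgeR adjusted p rose above 0.05 for Cds2 without wild-type vehicle replicate 2 (0.0680), and for Cux1 (0.126) and Gnb2 (0.0897) without wild-type vehicle replicate 3. After thinning Cds2 (0.208) and Cux1 (0.0673) were not called, nor was Cds2 by DESeq2 (0.0539). Under the covariate Alb, Plod3 (0.76) and Ap1s1 (0.64) were still called in vehicle, and Cds2 (−0.30, edgeR adjusted p 0.3997), Cux1 (0.24, 0.580) and Gnb2 (−0.20, 0.438) were not, against 3.72% of all genes called. These neighbours were looked up after the values of the 4 genes were seen.

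The full TGACGTCA element was present in the promoter windows of 312 of 7820 tested genes with a window, or 3.99%. Of these 312 genes 12.5% were called lower and 11.5% higher in vehicle, against 10.6% and 10.003% of the 7508 tested genes without it. In ivermectin the shares were 17.6% lower and 13.8% higher with the element and 13.6% and 14.2% without. These shares are a description and were not tested against each other.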

How the data were processed

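Poly(A) RNA of 16 libraries of BetaTC6 cells was analysed, 4 per group. Per the submitters' processing notes, which give no order or role, the tools were bcl2fastq, STAR 2.7.2b, RSEM 1.3.3 and DESeq2 1.32.0, with build mm10. The authors deposited RSEM output per library, with expected counts, TPM and effective lengths per the file headers, and a table of whole-number counts. Each of the 373264 values of that deposited count table equalled the expected count rounded down. The deposited counts gave every test, and the TPM deposited by the authors gave levels between genes. The normalised table and the human islet files were not used.

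Genes were filtered with filterByExpr by group (minimum count 10, minimum total 15), which kept 10820, and R 4.3.3 with edgeR 4.0.16 then fitted 1 mean per group to all 16 libraries (TMM factors, glmQLFit, glmQLFTest), with Benjamini-Hochberg adjustment over all tested genes at 0.05. Log2 CPM used a prior count of 2. The procedure was tested on simulated data. Ratios within a library were compared with an exact two-sided permutation test. Intervals are at 95% and cover counting and replicate spread, and reads without molecular identifiers are not independent molecules. The alternatives were DESeq2 1.42.0, relative log expression factors, no filter, a mean of at least 50 counts, a replicate block, RSEM expected counts, a fit to the compared libraries alone, an effective length offset, hepatocyte markers left out, Rn45s and Lars2 left out, Alb as a covariate, leaving out each library, and, chosen after seeing the data, thinning to the smallest total.

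The 10 genes, the lists and the markers were chosen with earlier results of these data known. All 10 are described. Genes of the lists are named where they pass the threshold, and the 3 genes with the highest correlation with the member of smallest adjusted p are named. Promoters came from the RefSeq table of GRCm38.p6, the assembly behind mm10.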

Additional observations from a re-analysis of the deposited data

Results flagged for a closer look

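In 6 of 68 groups of 4 values examined, 1 library lay far from the other 3 by Dixon's criterion, and chance alone gives 3.4. For Pcsk1 it was wild-type vehicle replicate 3, at 542.95 CPM against 601.49 to 609.41. For Scg5 it was labelled-knockout vehicle replicate 2, at 369.67 CPM against 425.88 to 434.42. For Cpe it was labelled-knockout vehicle replicate 1, at 4521.3 CPM against 4218.8 to 4234.4. For Pcsk2 it was labelled-knockout ivermectin replicate 2, at 2128.6 CPM against 1960.1 to 1978.7. The ratio of Pcsk1 to Pcsk2 counts was 0.27852 in labelled-knockout ivermectin replicate 1 against 0.25644 to 0.2584. The number of genes with a count was 14134 in wild-type ivermectin replicate 2 against 14251 to 14273. Chgb, Scg2 and Vgf had no such library in any group.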

How the results depend on the processing

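None of the 8 called values of the 10 genes changed sign under any alternative, while 20 of the 42 values not called did under at least 1, and 0 of those 42 became called, within log2 differences of −0.24 to 0.23. In vehicle 1 of the 10 genes (Chgb) was called with Alb as a covariate, and 3 to 4 were called without 1 library. The difference of Chgb with ivermectin in wild-type cells ran from −0.0053 to 0.053 without 1 library. Ratios with ivermectin also changed sign when 1 library was left out. In wild-type cells Chgb to Chga ran from −0.018 to 0.035, Pcsk2 to Scg5 from −0.058 to 0.025 and Pcsk1 to Pcsk1n from −0.089 to 0.058. In labelled-knockout cells Chgb to Chga ran from −0.052 to 0.024, Pcsk2 to Scg5 from −0.053 to 0.053, Pcsk1 to Pcsk1n from −0.10 to 0.11 and Pcsk1 to Pcsk2 from −0.024 to 0.015. The cause was not tested. With the replicate number as a block, 4 of the 10 genes were again called in vehicle and 4 in ivermectin, and 0 for ivermectin or the interaction. Same-numbered libraries correlated in their deviations over all tested genes at −0.05 to 0.14, with 2 of 16 pairs over 0.1. Such low values do not settle whether the numbers pair the libraries. Alb was highest in replicate 1 of every group, at 923 and 172 CPM in wild-type vehicle and ivermectin libraries. In labelled-knockout vehicle and ivermectin libraries it stood at 52.3 and 144 CPM. Over all genes, calls ran from 1 to 140 (65 in the values reported) for ivermectin in wild-type cells, 0 to 23 (0) in labelled-knockout cells, 403 to 2664 (2240) for the label in vehicle, 1908 to 3093 (3008) in ivermectin and 0 to 82 (24) for the interaction. The low totals of the wild-type vehicle group may limit what its comparisons can show, which was not tested. Thinning left Vgf uncalled in the comparison of the labels in ivermectin, which holds no library of that group.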
